A study of Mus musculus with 2 samples.

Results

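The genes described here are 6 regulators of G protein signalling, Rgs1, Rgs2, Rgs10, Rgs14, Rgs18 and Rgs19, chosen by name as the rows of the deposited gene tables that carry these symbols, 6 of the 55357 genes listed in each table. Their transcripts were counted by single-cell RNA sequencing (10x Genomics 3′ v2) in cells of the adult mouse cerebral cortex sorted as CD45+ CD11b+, 2 surface proteins of microglia and of other myeloid cells. The study set Moesin Knockout mice, which lack Msn, against Wild-type mice and gave 1 library for each genotype. Each library was made from the pooled cortices of 5 to 6 mice aged 8 weeks, with the same papain digestion, Percoll step and sort, per the labels' protocols. The knockout mice were C57BL/6, per the series design. Neither the background of the wild-type animals nor the sex of either pool is stated, the deleted stretch of Msn is likewise unstated, and nothing states that the deletion was limited to a cell type.

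A receptor of the seven-helix class activates a G protein by loading its alpha subunit with GTP. An RGS protein binds that alpha subunit through its RGS domain and speeds the hydrolysis of GTP, which ends the signal and lets the alpha subunit rejoin beta and gamma. Microglia and monocytes sense chemokines, nucleotides and complement fragments through such receptors, largely by way of the Gi class. Rgs1, Rgs2 and Rgs18 belong to the small R4 family, Rgs10 and Rgs14 to the R12 family and Rgs19 to the RZ family.

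In total 67575835 UMIs over 9038 barcodes came from knockout and 68576464 UMIs over 5842 barcodes from wild-type mice. Cells with fewer than 500 genes, or with over 10% of their UMIs from the mitochondrial genome, were removed, which left 7573 knockout and 5577 wild-type cells, with medians of 5455 and 7178 UMIs. Msn, the targeted gene, stood at 20.7 CPM (UMIs per 1e6 UMIs of the class) in knockout microglia and 322 CPM in wild-type microglia. Cells were assigned to classes by the UMIs of gate genes: P2ry12 and Tmem119 for microglia, Ace or Ly6c2 for monocytes, Mrc1 and Pf4 for border macrophages, and Ncr1 and Nkg7 for NK cells. Microglia numbered 4671 in the knockout library and 5035 in the wild-type library, Ace monocytes 319 and 14, Ly6c2 monocytes 159 and 22, border macrophages 94 and 18, and NK cells 58 and 0. The absence of NK cells among 5577 wild-type cells allows a share of up to 0.0538%. Cells that met 2 gates were left out, and made up 13.7% of knockout and 4.30% of wild-type cells. A further 16.3% of knockout and 4.45% of wild-type cells fell in no class, with medians of 1077 and 1380 UMIs. Only 13 barcodes occurred in both libraries. With 1 library per genotype, genotype and library cannot be told apart and no test between genotypes was possible. Intervals are 95%, exact, and cover counting error only, and the limit given for a count of 0 is the share or level that 3 counts would give.

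Microglia made up 61.7% of the kept knockout cells and 90.3% of the kept wild-type cells. Set against the median gene, Rgs1 and Rgs10 were each 1.5-fold or more higher in knockout microglia and Rgs2 was inside that range. On that scale 15.4% of all measured genes passed as higher. By plain CPM Rgs2 was 1.5-fold or more lower, as were 30.6% of all measured genes, while Rgs1 and Rgs10 were inside the range. Rgs19 differed little, and Rgs14 and Rgs18 were nearly absent from microglia of both genotypes. Across cell classes the 6 genes split by place: Rgs1, Rgs2 and Rgs10 were highest in microglia, Rgs14 in monocytes and NK cells, Rgs18 in border macrophages and Ly6c2 monocytes, and Rgs19 did not differ beyond counting error between classes next to each other in level (the plot of levels by cell class).

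**Figure D1:**
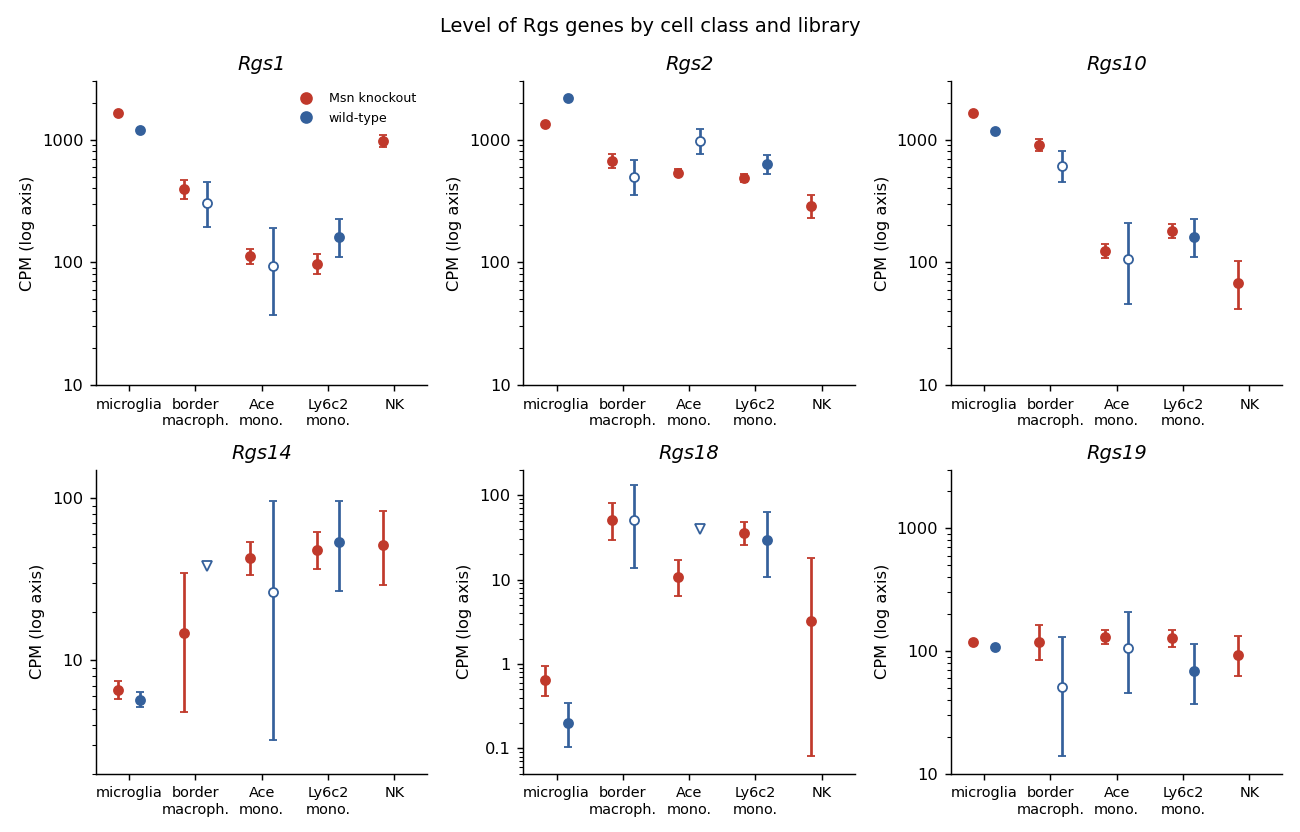
Level of each Rgs gene in CPM, on a log axis whose range differs for Rgs14 and Rgs18, in 5 cell classes of the knockout (red, left) and wild-type (blue, right) library. Bars are 95% Poisson intervals, open circles mark classes with fewer than 20 cells, and open triangles mark classes at 0, drawn at the level that a count of 0 allows. Rgs1, Rgs2 and Rgs10 stood above 1000 CPM only in microglia, while Rgs18 was under 1 CPM there.

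Rgs1, which in B and T lymphocytes of mouse limits the response of chemokine receptors, lies on chromosome 1 at 144118034 to 144124980, minus strand (GRCm39 with the GENCODE annotation, as for all gene positions). Rgs1 stood at 1636 CPM (interval 1623 to 1649) in knockout microglia and 1196 CPM (1188 to 1205) in wild-type microglia. The log2 ratio of these Rgs1 levels was 0.45. The median of the 8720 genes measured at 10 CPM or more was itself at -0.30, so that Rgs1 lay 0.75 above the median gene (interval 0.73 to 0.76), at percentile 91.8. A gene was called higher or lower at 1.5-fold or more relative to that median, and 2 of the 4 members measured at this floor, Rgs1 and Rgs10, were called higher and none lower. Among all measured genes 15.4% were called higher and 12.5% lower. By plain CPM 4.86% of genes passed as higher and 30.6% as lower. There no member passed as higher and Rgs2 passed as lower.

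Rgs10, which acts mainly on Gi-class alpha subunits and in mouse restrains inflammatory gene expression of microglia, lies on chromosome 7 at 127975345 to 128020482, minus strand. Its level was 1644 CPM (1631 to 1657) in knockout microglia and 1174 CPM (1165 to 1183) in wild-type microglia. The log2 ratio of Rgs10 was 0.49, and 0.78 relative to the median gene (0.77 to 0.80), at percentile 93.2. The shift of Rgs10 thus had nearly the size of that of Rgs1, a gene of another family on another chromosome. The lncRNA Gm15503 lies within Rgs10 on the same strand, and how shared reads were counted is not stated, so the level of Rgs10 is uncertain by that much.

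Rgs2, which acts by preference on Gq-class alpha subunits, lies on chromosome 1 at 143875076 to 143879899, minus strand. Rgs2 stood at 1345 CPM (1333 to 1357) in knockout microglia and 2185 CPM (2174 to 2197) in wild-type microglia, which makes it the one member measured in microglia with the higher level in wild-type. The log2 ratio of Rgs2 was -0.70, and -0.40 relative to the median gene (-0.42 to -0.39), at percentile 23.1. It was therefore 1.62-fold lower in knockout microglia by CPM, and inside the 1.5-fold range against the median gene.

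Rgs19, also known as GAIP, acts on Gi-class alpha subunits and lies on chromosome 2 at 181330212 to 181335997, minus strand, overlapping Tcea2 on the opposite strand, with which it could share reads if strand was not used in counting. Rgs19 was at 118 CPM (115 to 122) in knockout microglia and 108 CPM (105 to 110) in wild-type microglia. The log2 ratio of Rgs19 was 0.14, and 0.44 relative to the median gene (0.38 to 0.49), which is within the 1.5-fold range. Rgs14, whose protein also carries a Ras-binding region and a GoLoco motif that binds inactive Gi-class subunits, lies on chromosome 13 at 55517258 to 55535857, plus strand. It was at 6.61 CPM (5.81 to 7.49) in knockout and 5.72 CPM (5.13 to 6.35) in wild-type microglia, under the floor of 10 CPM. Rgs18, a gene of megakaryocytes and other blood cells, lies on chromosome 1 at 144628291 to 144651189, minus strand. Only 24 Rgs18 UMIs were found in knockout microglia (0.642 CPM, 0.412 to 0.956) and 12 in wild-type microglia (0.198 CPM, 0.102 to 0.346).

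Transcripts of other cell types were not alike in the microglia of both libraries. The summed level of 8 monocyte markers was 80.0 CPM in knockout and 14.2 CPM in wild-type microglia, that of 5 neutrophil markers 222 and 17.9 CPM, that of 5 erythroid markers 669 and 87.3 CPM, and that of 4 choroid plexus markers 77.6 and 1.06 CPM. Border macrophage markers summed to 207 CPM in knockout and 249 CPM in wild-type microglia, astrocyte markers to 153 and 195 CPM, and endothelial markers to 21.9 and 28.4 CPM. Of the monocyte markers Ly6c1 was at 0 in knockout microglia and none was at 0 in wild-type microglia. The 8 further microglial markers summed to 21122 CPM in knockout and 18992 CPM in wild-type microglia, so that the label held in both libraries. The part of these transcripts in the member ratios was not tested.

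At matched depth the directions were the same cell by cell (the plot of UMIs per cell). After each cell was thinned to 2000 UMIs, which left out 346 knockout and 136 wild-type microglia that were shallower, 82.5% of knockout microglia (81.4% to 83.7%) and 75.1% of wild-type microglia (73.9% to 76.3%) held an Rgs1 UMI. For Rgs10 the shares were 94.9% in knockout (94.2% to 95.5%) and 89.4% in wild-type microglia (88.5% to 90.3%). For Rgs2 they were 84.7% in knockout (83.6% to 85.8%) and 94.3% in wild-type microglia (93.6% to 94.9%). Rgs1, Rgs2 and Rgs10 were thus detected in most microglia of either genotype, and the libraries differed in how many UMIs a cell held. For Rgs19 the shares were 20.9% in knockout (19.7% to 22.1%) and 19.0% in wild-type microglia (17.9% to 20.2%). For Rgs14 they were 1.53% in knockout and 0.919% in wild-type microglia, and for Rgs18 0.0462% and 0.0408%, which is 2 cells in each library. Without thinning, shares were larger in the deeper wild-type cells for every member but Rgs18: an Rgs1 UMI was found in 90.7% of knockout and 91.3% of wild-type microglia, Rgs10 in 96.6% and 98.4%, Rgs2 in 92.7% and 98.4%, Rgs19 in 51.7% and 59.8%, Rgs14 in 4.86% and 6.43%, and Rgs18 in 0.450% and 0.218%. For Rgs1, Rgs10, Rgs14 and Rgs19 the unthinned order was thus the opposite of the thinned one. NK cells, which showed the lowest Rgs10 level, held an Rgs10 UMI in 6.90% of 58 cells (1.91% to 16.7%) at the same thinned depth and in 22.4% without thinning.

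The spread of counts over cells set Rgs1 apart. The variance of thinned Rgs1 UMIs divided by their mean, which would be 1 for pure counting noise, was 3.26 in knockout and 3.05 in wild-type microglia. That ratio was 1.95 for Rgs2 in knockout and 1.96 in wild-type, 1.14 and 1.09 for Rgs10, and 1.04 and 0.974 for Rgs19. Rgs10 thus varied little beyond counting noise, while Rgs1 varied strongly between cells of the same library. The mean of 0.238 Rgs19 UMIs per cell in knockout and 0.208 in wild-type microglia is too low for its ratio to say how evenly the gene was spread. The 10% of microglia with the most Rgs1 held 32.6% of its UMIs in the knockout and 36.0% in the wild-type library, against 21.6% and 23.6% for Rgs10. Cells with 5 or more Rgs1 UMIs made up 26.5% of knockout and 15.1% of wild-type microglia. For Rgs10 such cells made up 23.6% and 9.55%, and for Rgs2 17.9% of knockout and 39.0% of wild-type microglia.

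**Figure D2:**
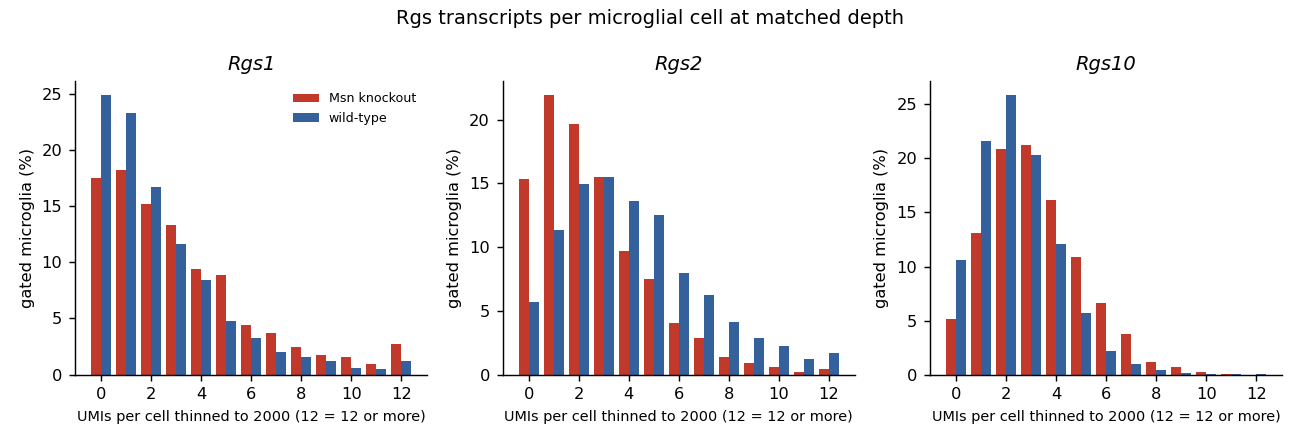
Share of gated microglia, in percent, by the number of Rgs1, Rgs2 and Rgs10 UMIs per cell after thinning to 2000 UMIs, in the knockout (red, left) and wild-type (blue, right) library. The last bar holds cells with 12 or more UMIs. Knockout bars lie further right for Rgs1 and Rgs10 and further left for Rgs2, where 39.0% of wild-type microglia held 5 or more UMIs.

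Rgs1 and Rgs2 were the one pair of the 6 among these 4 genes whose counts were seen to rise together over single cells. The Spearman correlation of their thinned UMIs was 0.23 over 4325 knockout microglia and 0.19 over 4899 wild-type microglia, given as a description since the cells share a library and a depth. In the other 5 pairs it lay between -0.03 and 0.01 in both libraries. Each of those pairs holds Rgs10 or Rgs19. Counts of Rgs10 varied little beyond counting noise and those of Rgs19 were low, so values near 0 cannot show that the genes are unrelated. Rgs1 and Rgs2 were found together in 71.7% of knockout and 71.7% of wild-type microglia, where the product of the single shares was 69.9% and 70.8%.

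The difference between the libraries was followed over the depth of the cell, since knockout cells were shallower (the plot of levels by depth). For Rgs2 the log2 ratio of the CPM levels was -0.62 in microglia under 3000 UMIs, -0.66 from 3000 to under 6000, -0.66 from 6000 to under 12000 and -0.66 at 12000 or more. For Rgs10 it was 0.61, 0.44, 0.44 and 0.52 over the same ranges. The direction for these genes was the same at every depth. Rgs1 stood at 949 CPM (887 to 1013) in knockout and 965 CPM in wild-type microglia under 3000 UMIs, a log2 ratio of -0.02, against 0.46, 0.44 and 0.47 in the 3 deeper ranges. By plain CPM the excess of Rgs1 was thus not seen in the shallowest microglia. Rgs19 gave log2 ratios of -0.27, 0.24, -0.02 and 0.15, with no steady sign.

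**Figure D3:**
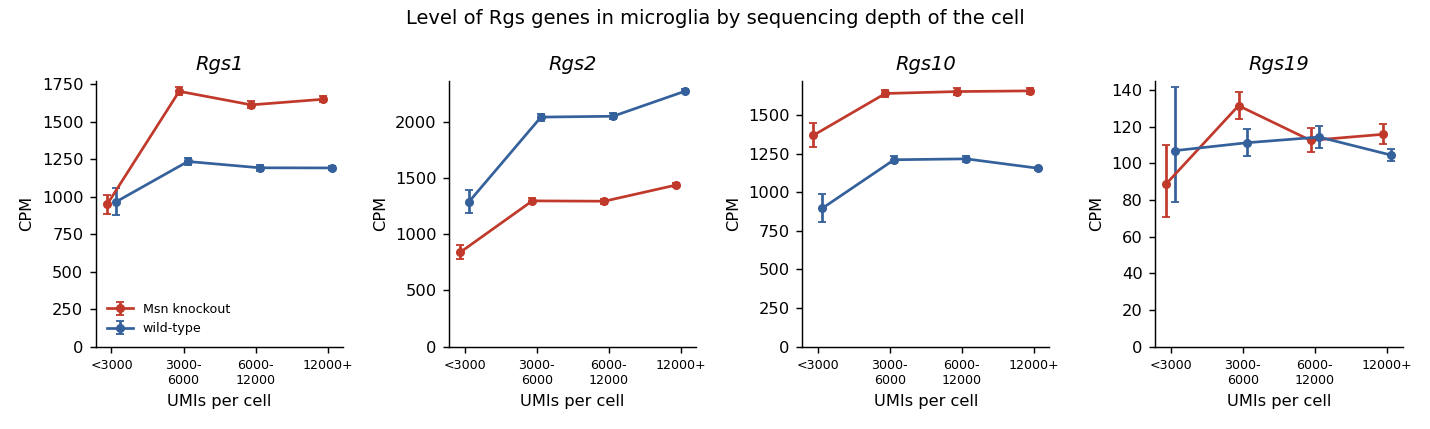
Level of Rgs1, Rgs2, Rgs10 and Rgs19 in CPM, from 0, in microglia grouped by UMIs per cell, in the knockout (red) and wild-type (blue) library, with 95% Poisson intervals. The lines stay apart at each depth for Rgs2 and Rgs10, meet under 3000 UMIs for Rgs1, and cross for Rgs19.

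Rgs1 and Rgs2 were highest in the microglia with the most immediate early transcripts (the plot by state score). Microglia were ranked within each library by the summed thinned UMIs of 11 immediate early genes (Fos, Fosb, Jun, Junb, Jund, Egr1, Ier2, Ier5, Atf3, Btg2 and Zfp36), genes switched on rapidly by a stimulus. Cells above the upper quartile were set against those at or below the lower quartile. High-score cells were deeper, with medians of 5609 against 5189 UMIs in the knockout and 8370 against 5705 UMIs in the wild-type library. The part of depth in the Rgs differences below was not tested. In the knockout library Rgs1 stood at 2013 CPM in the high-score and 1193 CPM in the low-score cells, a log2 difference of 0.76 (0.72 to 0.79). In the wild-type library the Rgs1 levels were 1361 and 933 CPM, a log2 difference of 0.54 (0.51 to 0.58). For Rgs2 the levels were 1571 CPM in high-score and 994 CPM in low-score knockout microglia, a log2 difference of 0.66 (0.62 to 0.70), and 2389 and 1765 CPM in wild-type microglia, a log2 difference of 0.44 (0.41 to 0.46). Both genes were thus higher in high-score cells of each library, while Rgs10 differed by -0.10 in the knockout and -0.14 in the wild-type library and Rgs19 by -0.09 and -0.13 on the log2 scale. Monocyte markers were also unequal over these cells: they summed to 36.7 CPM in high-score and 205 CPM in low-score knockout microglia, and to 8.76 and 23.9 CPM in those of the wild-type library, and their part in the Rgs values was not tested.

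The summed level of the 11 immediate early genes was 51934 CPM in knockout and 45593 CPM in wild-type microglia, so the genotypes were also compared at like scores. In microglia with under 60 immediate early UMIs of 2000, the lowest of 4 ranges chosen after the quartiles had been seen, Rgs1 stood at 814 CPM in 450 knockout and 876 CPM in 739 wild-type cells, a log2 ratio of -0.11 (-0.18 to -0.03). The log2 ratio of Rgs1 was 0.29 at 60 to 89 UMIs, 0.41 at 90 to under 120 and 0.48 at 120 or more (0.44 to 0.52). By plain CPM the higher Rgs1 level of knockout microglia was therefore found in the 3 upper ranges and not in the lowest. Monocyte markers summed to 361 CPM in knockout and 31.3 CPM in wild-type cells of the lowest range, and to 35.8 and 7.08 CPM at 120 or more, and their part in these ratios was not tested. These ratios were not set against the median gene of each range, and the value of -0.11 lies above the -0.30 of the median gene over all microglia. The log2 ratio of Rgs2 was -1.07 under 60 UMIs, -0.85 at 60 to 89, -0.71 at 90 to under 120 and -0.69 at 120 or more. It thus rose over the ranges, as that of Rgs1 did, but stayed below 0. Rgs2 was lower in knockout microglia in every range, with the widest gap in the cells with the fewest immediate early transcripts. For Rgs10 the log2 ratios over the same ranges were 0.30, 0.52, 0.53 and 0.53, and for Rgs19 0.13, 0.16, 0.13 and 0.30.

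**Figure D4:**
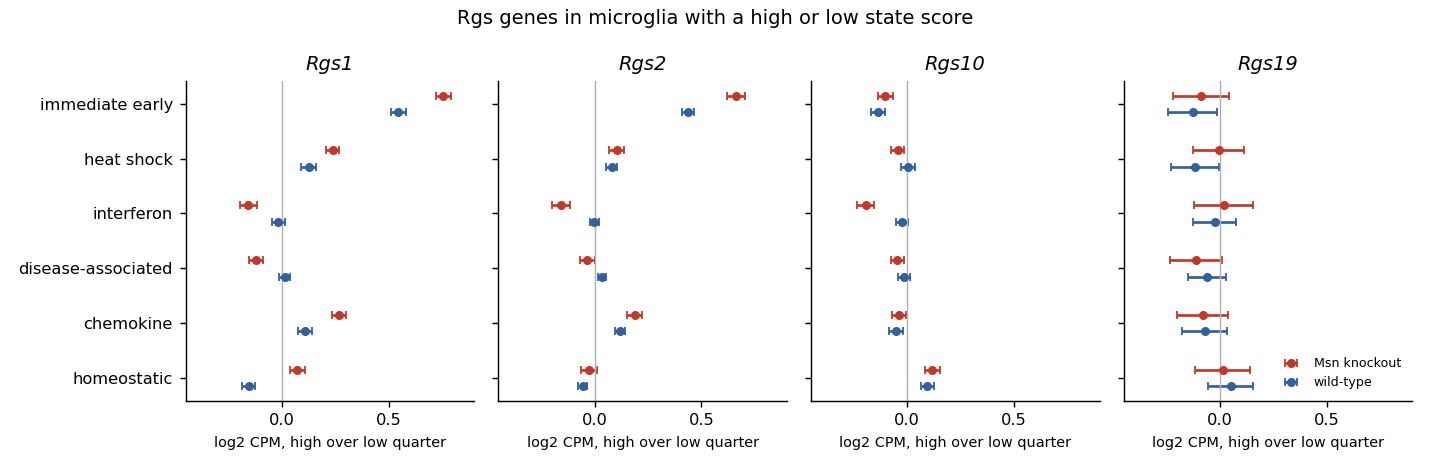
Log2 difference in CPM of Rgs1, Rgs2, Rgs10 and Rgs19 between microglia above the upper and those at or below the lower quartile of each of 6 state scores, within the knockout (red, above) and the wild-type (blue, below) library, with exact 95% intervals for counting error. The differences for the immediate early score, 0.76 and 0.54 for Rgs1 and 0.66 and 0.44 for Rgs2, stand apart from the rest.

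Over the other state scores Rgs1 and Rgs2 differed less. Rgs1 was higher in microglia with a high score for chemokine and cytokine transcripts (Ccl2, Ccl3, Ccl4, Ccl7, Ccl12, Tnf and Il1b) by 0.27 on the log2 scale in the knockout and 0.11 in the wild-type library. Over the heat shock score, Rgs1 differed by 0.24 in the knockout and 0.12 in the wild-type library. When microglia with any UMI of Hspa1a, Hspa1b or Dnajb1, which encode inducible chaperones, were left out, Rgs1 stood inside the 1.5-fold range between genotypes, at 0.49 relative to the median gene, while Rgs10 stood at 0.70. Of 4671 knockout and 5035 wild-type microglia, 558 and 1059 were left. Having no UMI of these genes also selects cells by depth, and by plain CPM Rgs1 stood at -0.02 in microglia under 3000 UMIs. The heat shock list itself was at 2771 CPM in knockout and 1447 CPM in wild-type microglia. In the knockout library Rgs10 differed by -0.19 over the interferon and 0.12 over the homeostatic score, against -0.10 over the immediate early score. Over the interferon, disease-associated and homeostatic scores Rgs1, Rgs2, Rgs10 and Rgs19 differed by -0.19 to 0.12 on the log2 scale in both libraries. Rgs18 was at 3.51 CPM (14 UMIs) in the 398 interferon-high knockout microglia and 0.271 CPM (7 UMIs) in those at 0. Monocyte markers summed to 464 CPM in those interferon-high cells and 31.0 CPM in the others, and their part in that Rgs18 value was not tested.

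The RefSeq promoter table (GRCm38.p6) held 3 of the 6 members, Rgs2, Rgs10 and Rgs19. The upstream sequence is shown for Rgs2, which went with the immediate early score, and for Rgs10, which did not, as the 250 bases before the start of transcription, 5′ to 3′ on the strand of the gene. Capitals mark TGACG or its complement CGTCA, the core letters of the site bound by CREB and related factors. In Rgs2 they begin at bases -185 and -67 from the start. The windows are chr1:144004150-144004399 (minus strand) for Rgs2 and chr7:128418173-128418422 (minus strand) for Rgs10.
Rgs2: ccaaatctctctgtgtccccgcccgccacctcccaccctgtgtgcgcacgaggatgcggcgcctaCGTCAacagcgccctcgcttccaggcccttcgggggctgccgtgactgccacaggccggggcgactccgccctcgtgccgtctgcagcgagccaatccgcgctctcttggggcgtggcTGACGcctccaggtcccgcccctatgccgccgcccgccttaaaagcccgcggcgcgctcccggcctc
Rgs10: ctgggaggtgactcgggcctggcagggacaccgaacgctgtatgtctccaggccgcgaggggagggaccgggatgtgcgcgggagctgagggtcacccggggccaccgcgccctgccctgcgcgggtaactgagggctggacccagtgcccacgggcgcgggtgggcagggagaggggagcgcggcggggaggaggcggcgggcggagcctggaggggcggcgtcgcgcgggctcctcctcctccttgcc
The motif was chosen with the values above known. TGACG on either strand occurs in 17.8% of the 32851 promoters of the table over the same 250 bases, and 2 or more copies in 3.90%. The full letters TGACGTCA, which contain TGACG, occur in 1.55% of promoters and TGACTCA in 4.46%, on either strand, and neither was found in the windows of the 3 members. Such a match is a run of letters, and nothing here bears on whether a factor binds it.

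Rgs2, Rgs1 and Rgs18 are neighbours. With Rgs13 and Rgs21 they are the 5 protein-coding genes of an interval of 776114 bases on chromosome 1, all on the minus strand. Over 7 points (a class in a library with at least 20 cells) the Pearson correlation of log2(CPM + 10) was 0.49 between Rgs1 and Rgs2, -0.73 between Rgs1 and Rgs18 and -0.42 between Rgs2 and Rgs18, as descriptions over points that share libraries. The strongest pairings were -0.96 between Rgs10 and Rgs14, both of the R12 family, -0.88 between Rgs2 and Rgs14, and 0.86 between Rgs2 and Rgs10.

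By class, Rgs1 in the knockout library ran in the order microglia (1636 CPM), NK cells (976 CPM, 869 to 1092), border macrophages (395 CPM, 331 to 468), Ace monocytes (112 CPM) and Ly6c2 monocytes (97.2 CPM). Each neighbour pair in that order differed beyond counting error but the last. In the wild-type library Rgs1 was at 305 CPM in border macrophages, 161 CPM in Ly6c2 monocytes and 93.0 CPM in Ace monocytes, the last 2 not differing beyond counting error. Rgs1 was thus 16.8-fold higher (14.1 to 20.3) in microglia than in Ly6c2 monocytes of the knockout library and 7.45-fold higher (5.30 to 10.8) in the wild-type library. Microglial markers stood at 17.4% of their microglial level in knockout border macrophages, and microglial RNA in that amount would carry 285 of the 395 CPM of Rgs1 there. Measured the same way, microglial RNA would carry 56.2 of the 112 CPM in Ace and 43.0 of the 97.2 CPM in Ly6c2 monocytes of the knockout library. In the wild-type library it would carry 155 of the 305 CPM in border macrophages, 46.9 of the 161 CPM in Ly6c2 and 71.9 of the 93.0 CPM in Ace monocytes. NK cells held Rgs1 in 74.1% of 58 thinned cells (61.0% to 84.7%) and 82.8% without thinning. Microglial markers there were at 3.33% of their microglial level, which would carry 54.4 CPM of Rgs1. In these NK cells 5 T cell markers summed to 754 CPM, with none at 0, and 8 monocyte markers to 985 CPM. Their part in the Rgs values of NK cells was not tested.

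Rgs10 was much lower outside microglia and border macrophages. Its order in the knockout library was microglia, border macrophages (900 CPM, 802 to 1008), Ly6c2 monocytes (180 CPM), Ace monocytes (124 CPM) and NK cells (67.4 CPM), and every neighbour pair differed beyond counting error. In the wild-type library border macrophages were at 610 CPM (450 to 809) and Ly6c2 and Ace monocytes at 161 and 106 CPM. Microglial markers in border macrophages were at 17.4% of their microglial level in the knockout library, which would carry 286 of the 900 CPM. The 67.4 CPM of NK cells (41.7 to 103) was not distinguishable from the 54.7 CPM that microglial RNA would carry there.

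Rgs2 was less bound to class. In the knockout library it stood at 675 CPM in border macrophages, 537 CPM in Ace monocytes, 486 CPM in Ly6c2 monocytes and 286 CPM in NK cells, and the levels of the monocyte classes did not differ beyond counting error. In the wild-type library it stood at 969 CPM in Ace monocytes, 633 CPM in Ly6c2 monocytes and 496 CPM in border macrophages, the last 2 not differing beyond counting error. Microglial RNA would carry 234 of the 675 CPM in knockout and 284 of the 496 CPM in wild-type border macrophages. Microglia led in both libraries, by 1.99-fold (1.75 to 2.28) over border macrophages in the knockout library and by 2.25-fold (1.79 to 2.88) over Ace monocytes in the wild-type library.

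Rgs14 was a gene of the blood-derived classes. It stood at 51.4 CPM in NK cells, 48.2 CPM in Ly6c2 monocytes and 42.7 CPM in Ace monocytes of the knockout library, where neighbours in that order did not differ beyond counting error, and at 14.9 CPM (4.82 to 34.7) in border macrophages. In wild-type cells it was at 53.5 CPM (26.7 to 95.8) in Ly6c2 monocytes and 26.6 CPM (3.22 to 95.9) in Ace monocytes, while 0 UMIs in border macrophages allow up to 38.1 CPM. The fold of Ly6c2 monocytes over microglia was 7.29 in the knockout and 9.36 in the wild-type library.

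Rgs18 had the sharpest contrast of the 6. It was at 50.5 CPM (29.4 to 80.9) in border macrophages and 35.4 CPM (25.7 to 47.5) in Ly6c2 monocytes of the knockout library, and at 50.9 CPM (13.9 to 130) and 29.2 CPM (10.7 to 63.6) in those of the wild-type library. Border macrophages thus exceeded microglia 78.6-fold (39.6 to 153) in the knockout library and 256-fold (60.3 to 846) in the wild-type library. Ace monocytes were lower, at 10.7 CPM (6.33 to 16.9) in the knockout library and at 0 UMIs in the wild-type library, which allows up to 39.8 CPM. Within knockout monocytes the Ly6c2 class exceeded the Ace class 3.31-fold (1.87 to 6.08). The 5 platelet markers summed to 2.41 CPM in knockout Ly6c2 monocytes and to 8.91 CPM in knockout border macrophages. Ppbp, Itga2b and Gp1bb were at 0 in both classes. In microglia, where Rgs18 was nearly absent, the same markers summed to 64.6 CPM in the knockout and 40.3 CPM in the wild-type library. The part of platelet RNA in the Rgs18 values was not tested.

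Rgs19 showed no clear order of classes. Its level in the knockout library ran between 93.1 CPM (62.3 to 134) in NK cells and 131 CPM (114 to 150) in Ace monocytes, and in the wild-type library between 50.9 CPM (13.9 to 130) in border macrophages and 108 CPM in microglia. In neither library did any neighbour pair in the order differ beyond counting error.

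Between genotypes, monocytes could be compared only with wide intervals, since there were 478 in the knockout library and 36 in the wild-type library. Of the 4 members measured at 50 CPM or more over both monocyte classes, Rgs19 was called higher in knockout monocytes and none lower, where 17.3% of 3262 genes were called higher and 20.7% lower. By plain CPM 14.4% of genes passed as higher and 22.6% as lower, with the same call for Rgs19 and none for the others. Rgs19 stood at 129 CPM (379 UMIs) in knockout and 78.4 CPM (22 UMIs) in wild-type monocytes, 0.78 relative to the median gene on the log2 scale (0.16 to 1.47). Rgs1 was at 106 and 142 CPM in knockout and wild-type monocytes, Rgs2 at 516 and 723 CPM and Rgs10 at 148 and 146 CPM. Their log2 ratios relative to the median gene were -0.38 (-0.86 to 0.14), -0.43 (-0.64 to -0.21) and 0.07 (-0.39 to 0.57). Ace monocytes made up 319 of the 478 knockout and 14 of the 36 wild-type monocytes, so the combined class was not made up alike.

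Within Ly6c2 monocytes alone, 20.2% of 3233 measured genes were called higher and 24.5% lower, and by plain CPM 18.2% and 26.3%. Of 5 measured members 1 was called higher and 1 lower, on either scale. Rgs1 was called lower, at 97.2 CPM (80.7 to 116) in knockout and 161 CPM (111 to 226) in wild-type cells, -0.68 relative to the median gene (-1.24 to -0.07). Rgs19 was called higher, at 127 CPM (108 to 148) in knockout and 68.1 CPM (37.3 to 114) in wild-type cells, 0.95 relative to the median gene (0.16 to 1.85). The Rgs1 call rests on 33 wild-type UMIs in 22 cells. It was lost when each cell counted alike (-0.25) and with 1 UMI of Ace or Ly6c2 as the gate (-0.46). At matched depth 12.9% of knockout and 18.2% of wild-type Ly6c2 monocytes held an Rgs1 UMI, and 20.6% and 4.55% held an Rgs19 UMI, with wild-type intervals of 5.19% to 40.3% and 0.115% to 22.8%. The mean of thinned Rgs1 UMIs per cell was 0.194 in knockout and 0.182 in wild-type Ly6c2 monocytes, which is not lower in the knockout. The 5 neutrophil markers summed to 2841 CPM in knockout Ly6c2 monocytes and were all at 0 in wild-type ones, and their part in these values was not tested. Border macrophages, with 18 wild-type cells, gave no ratio.

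The genes of the wider pathway were taken from 10 lists of 80 genes, members included, of which 40 were measured in microglia at 10 CPM or more. Relative to the median gene, 9 were called higher in knockout microglia (22.5%, where all genes gave 15.4%), 6 lower (15%, where all genes gave 12.5%) and 25 neither, and the median of the 40 was 0.13. By plain CPM 2 of the 40 passed as higher and 10 as lower. These shares lay near those of all genes.

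Of the 20 RGS genes in the lists, 5 were measured in microglia: Rgs1, Rgs2, Rgs10, Rgs19 and Rgs3, another R4 gene. Rgs3 stood at 96.6 CPM in knockout and 73.3 CPM in wild-type microglia, 0.70 relative to the median gene, close to Rgs1 and Rgs10. None of the 4 R7 genes, which serve mainly neurons, reached 10 CPM in microglia. Among classes of at least 20 cells Rgs16, of the R4 family, reached 10 CPM only in NK cells, at 35.3 CPM (11 UMIs in 58 knockout cells).

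Among the G proteins themselves (the plot of the pathway's genes), Gnai2, the main Gi-class alpha subunit of leukocytes and a substrate of Rgs1, Rgs10 and Rgs19, was at 1077 CPM in knockout and 793 CPM in wild-type microglia, 0.74 relative to the median gene. Gnas, the Gs alpha subunit, was called higher (0.60) and Gnaq, the Gq alpha subunit on which Rgs2 acts, lower (-0.61), at 92.7 CPM in knockout and 173 CPM in wild-type microglia. The remaining 5 of 8 measured alpha subunits were within the 1.5-fold range, Gnai3 at 0.03 among them. The calls came to 25% higher and 12.5% lower, where all genes gave 15.4% and 12.5%. Of 7 beta and gamma subunits, Gnb2 (1.08), Gng5 (0.89) and Gngt2 (0.59) were called higher (42.9%, where 15.4% of all genes were) and none lower. Gng12 (0.20) and Gng10 (0.03) were the lowest. Gng10, at 9.05 CPM in knockout and 10.9 CPM in wild-type microglia, passed the floor of 10 CPM only through the wild-type library. Gngt2, and Pik3cg among the effectors, are named because their values were seen to pass. By plain CPM Gnb2 and Gng5 passed as higher, Gnaq as lower, and Gnai2, Gnas and Gngt2 did not pass. On that scale 4.86% of all genes passed as higher and 30.6% as lower.

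Of 7 measured effectors none was called higher and Adcy9 (-0.82), Adcy7 (-0.64) and Pik3cg (-0.63) were called lower (42.9%, where 12.5% of all genes were). The list median was -0.55 where the median of all genes is 0. Adcy9, at 6.29 CPM in knockout and 13.6 CPM in wild-type microglia, passed the floor of 10 CPM only through the wild-type library. The highest effectors were Pik3r6 (-0.07) and Plcb3 (-0.16), and by plain CPM 4 effectors passed as lower, where 30.6% of all genes did. Adcy7 and Adcy9 encode adenylyl cyclases and Pik3cg a lipid kinase driven by beta and gamma subunits. All 5 measured receptor kinases and arrestins were within the 1.5-fold range, between -0.48 for Arrb1 and 0.47 for Grk6, with Grk2 at 0.34 and Grk3 at -0.26, although by plain CPM Arrb1 passed as lower. Of 5 measured modulators, Gipc1, whose protein binds the tail of Rgs19, was called higher (0.78). Ric8b, a chaperone of Gs-class alpha subunits, was called lower (-0.61), while Gpsm3 stood at 0.41 and Gpsm1 at -0.09. Each call makes 20% of the measured modulators, where all genes gave 15.4% higher and 12.5% lower.

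**Figure D5:**
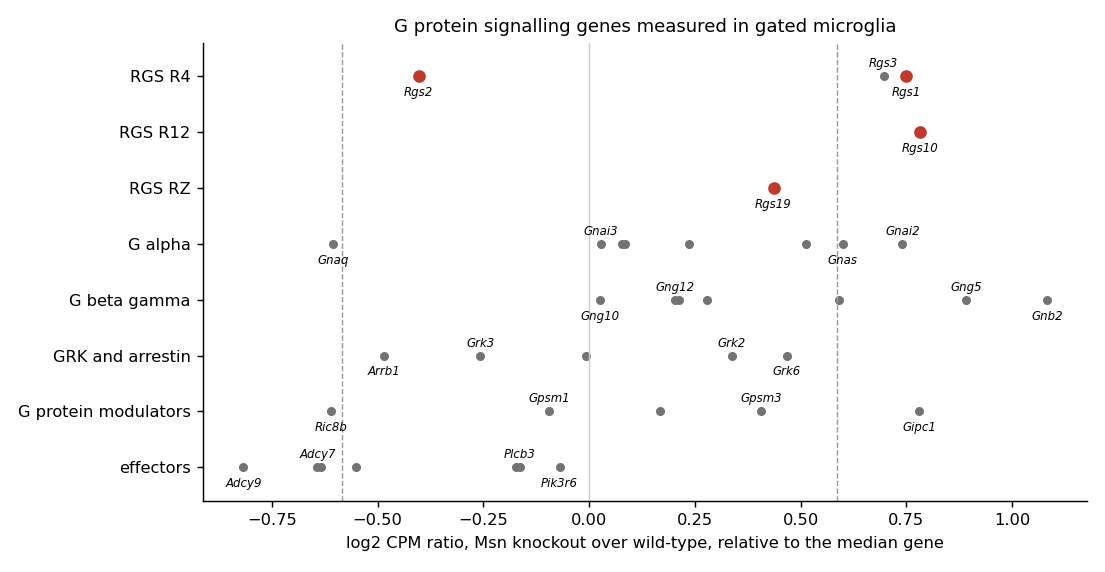
Log2 CPM ratio of knockout over wild-type microglia, relative to the median gene, for the measured genes of 8 of the 10 lists (the R7 list had none), with members of the described group in red, other genes in grey and names as chosen by rule. Dashed lines mark 1.5-fold in each direction. Rgs1 and Rgs10 lie to the right of the range with Rgs3, Gnai2, Gnb2 and Gng5, and Rgs2 lies left of 0 inside it.

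The genes whose levels most resembled each member over the 7 points, out of 5136 genes that reached 50 CPM in some point, were found by the Pearson correlation of log2(CPM + 10). They were Tex261 (0.991), Tmed9 and Slc38a2 for Rgs1, Trio (0.997), Ints6l and Dnajc7 for Rgs2, and Pla2g15 (0.992), Cnpy2 and Ctsl for Rgs10. For Rgs14 they were Cdkn2d (0.994), Txn1 and Itgb7, for Rgs18 Jaml (0.983), Cxcl2 and Tgfbi, and for Rgs19 Nfkbib (0.952), BC005624 and Tmem243. The size of the swing could differ within such a pair. Tex261 ran only between 102 and 163 CPM over the 7 points, where Rgs1 ran between 97.2 and 1636 CPM. The correlations were picked as the highest among 5136 genes over 7 points, a choice that favours high values. They are given as a description.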

How the data were processed

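Single-cell RNA sequencing of sorted CD45+ CD11b+ cortical cells gave 1 library per genotype. The values are UMI counts in whole numbers, as deposited for each gene and barcode, and were made by the authors with Cell Ranger 7.0.0, per the file headers, while the labels' protocols name version 6.0. The build was GRCm39, and Seurat with a filter at 500 genes is named, per the labels' protocols.

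Kept cells had at least 500 genes and at most 10% mitochondrially encoded UMIs. Microglia had at least 1 UMI of each gate gene, monocytes at least 2 of Ace or Ly6c2 and none of Ncr1 and Nkg7, and all classes but microglia at most 1 UMI of P2ry12 and Tmem119 together. No doublet caller was run, and cells that met 2 gates were left out (Ly6c2 did not count against NK cells). UMIs were summed per class and library and divided by the total (CPM). Ratios were set against the median of genes at 10 CPM or more (microglia) or 50 CPM or more (other classes) in at least 1 library. Classes under 20 cells gave none. Calls are by size, 1.5-fold. Intervals are exact (Poisson, conditional, binomial). Cells were thinned without replacement. The ratio and its intervals were tested on simulated data.

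Named genes were all members, other Rgs genes at 10 CPM or more in a class of 20 cells, the 2 highest and 2 lowest measured genes of each list, and the 3 genes most like each member. The genes of 1 list are counted in the totals and otherwise not reported here. Pik3cg and Gngt2 fall outside this rule and were chosen after their values were seen. Members, lists and markers were chosen with earlier results of these data known. Analyses used Python 3.11.15, NumPy 2.4.6, SciPy 1.17.1, pandas 2.3.3 and Matplotlib 3.10.9.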

Additional observations from a re-analysis of the deposited data

Results flagged for a closer look

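Rgs1 lay on opposite sides of the 1.5-fold rule in 2 cell classes: its log2 ratio of knockout over wild-type, relative to the median gene, was 0.75 in microglia and -0.68 in Ly6c2 monocytes. The difference between the classes was not tested, since each genotype had 1 library. The monocyte value rests on 121 knockout and 33 wild-type UMIs, lost its call when each cell counted alike (-0.25), and is taken from cells in which neutrophil markers summed to 2841 CPM in the knockout and 0 in the wild-type library.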

How the results depend on the processing

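No paired analysis was possible because each genotype had 1 library. In microglia the directions of Rgs1, Rgs2, Rgs10 and Rgs19 were the same under all 13 alternatives, with relative log2 ratios of 0.45 to 0.76, -0.70 to -0.37, 0.49 to 0.80 and 0.14 to 0.47. Values that left the counting interval, in the order Rgs1, Rgs2, Rgs10 and Rgs19, were 0.45, -0.70, 0.49 and 0.14 without the median as reference (0 members higher and 1 lower), 0.63, -0.52, 0.67 and 0.32 against genes at 50 CPM or more, and 0.49, -0.50, 0.70 and 0.31 without cells holding Hspa1a, Hspa1b or Dnajb1 (1 member higher). They were 0.73, -0.39, 0.71 and 0.38 in cells of 3000 to under 12000 UMIs, an alternative chosen after seeing the data. For Rgs1, Rgs2 and Rgs10 they were 0.67, -0.44 and 0.71 as means over cells, and 0.69, -0.37 and 0.75 with cells of 2 gates kept. For Rgs2 and Rgs10 they were -0.38 and 0.80 with 2 UMIs of each gate gene and -0.38 and 0.73 after thinning, and for Rgs10 0.76 without the 5% of cells with the most UMIs. Why these values moved was not tested. Limits on mitochondrial share and genes per cell and other totals left them within counting error. In monocytes and Ly6c2 monocytes all 54 values of each class stayed within counting error, although the call of Rgs1 in Ly6c2 monocytes held in 7 of 9, and leaving out the 1 knockout cell with 98.6% of the Ttr UMIs of its Ace monocytes, an alternative chosen after seeing the data, gave 0.78 for Rgs19. Demanding no UMI of P2ry12 and Tmem119 left 16 wild-type monocytes and gave no ratio. The pathway's genes numbered 2 higher and 10 lower of 40 on the CPM scale, where 4.86% and 30.6% of all genes passed. They numbered 5 and 5 at 50 CPM or more, and 18 and 9 with every gene detected in each library. These 2 floors change how many genes are measured, and the last also lets in genes of a few UMIs. The share of all genes called at them was not counted, so these numbers cannot be set against a background. When the top and bottom 10% of cells by immediate early score were compared, the log2 difference was 1.46 in knockout and 0.88 in wild-type microglia for Rgs1, and 1.06 and 0.76 for Rgs2. Of 54 class levels 4 moved under stricter gates, and of 69 state differences 26 under that choice. Thinning to 1000 UMIs or not thinning moved 22 of 24 shares, since the number of UMIs per cell sets a share. Few UMIs limit Rgs14 and Rgs18 in microglia, and the number of cells (14, 22 and 18) limits the wild-type Ace monocytes, Ly6c2 monocytes and border macrophages.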
